A study of Mus musculus with 6 samples.

Results

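The genes of the mitochondrial respiratory chain and ATP synthase were followed in RNA sequencing of mouse knee cartilage. Members were chosen by gene name and not by a cut on their measured values, although earlier results of these data were known. They were the protein-coding genes of the mitochondrial genome together with Sdha, Sdhb, Sdhc, Sdhd, Cycs and every protein-coding gene whose symbol begins with Ndufa, Ndufb, Ndufc, Ndufs, Ndufv, Uqcr, Cox4 to Cox8 or Atp5, with 1 Cox6 gene left out by the rule. This gave 107 gene identifiers of the 36711 in the files. Of these, 13 were mitochondrially encoded and 94 were nuclear. The nuclear members were 86 genes counted as subunits by their symbols alone, cytochrome c included, and 8 Ndufaf genes. The products of the Ndufaf genes help to build complex I and are not part of it. The symbol Atp5o was carried by a pair of identifiers, and the second of them was listed at no more than 0.22 in any library.

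Cartilage was taken from the tibia and femur of 3-month-old C57/Bl6 mice. There were 3 libraries from wild-type (WT) and 3 from miR-455 null animals, each made from the pooled cartilage of 2 knees. The null mice carry a CRISPR-Cas9 deletion of 35 bases that removes part of both mature forms of the microRNA, miR-455-3p and miR-455-5p, and nothing else distinguishes the groups in the labels. The deletion is constitutive, so every cell type in the sample carries it. The deposited values behave as abundances normalised for transcript length and scaled between libraries, although the exact quantity is not stated. All levels below are on that scale, and comparisons of levels between genes rest on that reading of it. The number of reads behind each value is unknown, so no counting error was calculated.

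The respiratory chain passes electrons from NADH and succinate to oxygen and pumps protons across the inner mitochondrial membrane, and ATP synthase uses the returning protons to make ATP. Complexes I, III and IV and ATP synthase (complex V) are assembled from subunits of both genomes, whereas complex II is made from nuclear genes alone. The mitochondrial genome is transcribed as long precursors that are cut into single mRNAs, while each nuclear subunit has its own promoter. Articular cartilage has no blood vessels, and its chondrocytes are known for relying largely on glycolysis.

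Knee cartilage libraries held much marrow and blood RNA. The 4 adult globin genes took 26.1% to 26.9% of the summed abundance of a WT library against 11.3% to 21.3% of a null library, and the calprotectin genes S100a8 and S100a9 took 6.58% to 8.12% and 6.504% to 16.6%. Of 11 chondrocyte markers, 5 passed the filter on low values and were higher in the null mean, and the summed chondrocyte markers were between 0.0258% and 0.0293% of the total in WT and between 0.0348% and 0.0781% in null libraries. Null 3 stood apart, with the lowest globin share, the highest calprotectin share and a median absolute log2 difference of 0.24 to 0.35 from the other libraries, against 0.14 to 0.22 for all other pairs. Mean levels were higher in null for all 11 neutrophil and 8 macrophage markers tested and lower for all 9 erythroid and 9 B cell markers. Fewer cells of a type and less RNA per cell cannot be told apart in these bulk samples, and the part of the cell mixture in the values below was not tested.

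The 13 mitochondrially encoded genes lie on chrM of mm10, 12 of them on the + strand and mt-Nd6 on the - strand. They include 7 genes for the membrane arm of complex I, mt-Cytb for complex III, 3 for the catalytic core of complex IV and 2 for the proton channel of complex V. Some of them overlap. The end of mt-Atp8 and the start of mt-Atp6 share 43 bases at chrM:7927-7969, and reads from this stretch belong equally to both genes. The shared stretch is shown because mt-Atp8 gave the largest fold change of all members, with the start codon of mt-Atp6 as its first 3 letters.
mt-Atp8 and mt-Atp6 overlap: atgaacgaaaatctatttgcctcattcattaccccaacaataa

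A further source of shared reads is a block of 7 annotated unprocessed pseudogenes at chr1:24611535-24616197, which is a nuclear copy of part of the mitochondrial genome. Gm28661 was identical to mt-Co2 over all of its 681 bases, Gm10925 to mt-Atp6 over 678 bases, Gm28437 to mt-Co3 over 783, Gm28439 to mt-Nd4 over 876 and Gm10222 to mt-Nd4l over 294. Gm28438 differed from mt-Nd3 by a single base, T3C, and Gm29216 from the end of mt-Co1 by 6 bases, T1056A, C1057T, A1059G, A1060G, C1062A and A1066T, with positions counted from 1 at the first base of the mitochondrial gene and its base given first. The stretches that hold these differences are shown with the differing bases in capitals, since inside the matching stretch no other base separates gene from copy. The mt-Co1 stretch lies at chrM:6381-6403 and its copy at chr1:24616175-24616197, and the mt-Nd3 stretch lies at chrM:9459-9481 and its copy at chr1:24613097-24613119 (both copies on the - strand, transcripts of GENCODE release M21).
mt-Co1: ggTCtAAcCggaAttgttttatc
Gm29216: ggATtGGcAggaTttgttttatc
mt-Nd3: atTaacctgtacactgttatctt
Gm28438: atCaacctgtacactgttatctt

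The mitochondrially encoded mRNAs were the most abundant members by far. Their summed abundance was 134539, 81198 and 117860 in WT 1, WT 2 and WT 3 against 107452, 116015 and 104490 in null 1, null 2 and null 3. Their share of the total was 11.8%, 8.69% and 11.1% in WT against 11.7%, 11.9% and 10.6% in null libraries, with means ± SD of 10.5% ± 1.64 and 11.4% ± 0.687 (n = 3). The genotypes overlapped, and the lowest value was that of WT 2. When globin and calprotectin transcripts were left out of the total, the share was 15.9% ± 2.62 for WT against 15.96% ± 1.13 for null (SD, n = 3).

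The level of single mitochondrial genes ran from a mean of 1842 for mt-Nd5 to 16754 for mt-Co3 and 16250 for mt-Co1. The core subunits of cytochrome oxidase thus stood above most complex I subunits in all 6 libraries. Abundance of mt-Co1, which holds the haem and copper centres of complex IV, was 21704, 13299 and 16186 in WT against 14003, 17579 and 14727 in null libraries. Abundance of mt-Co3 was 21607, 12958 and 17892 in WT against 16503, 17206 and 14356 in null libraries. In both genes the 3 null values lay inside the WT range, which was set by WT 1 at the top and WT 2 at the bottom. Across the 13 genes, WT 2 was the lowest library for 9 and WT 1 the highest for 10.

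**Figure D1:**
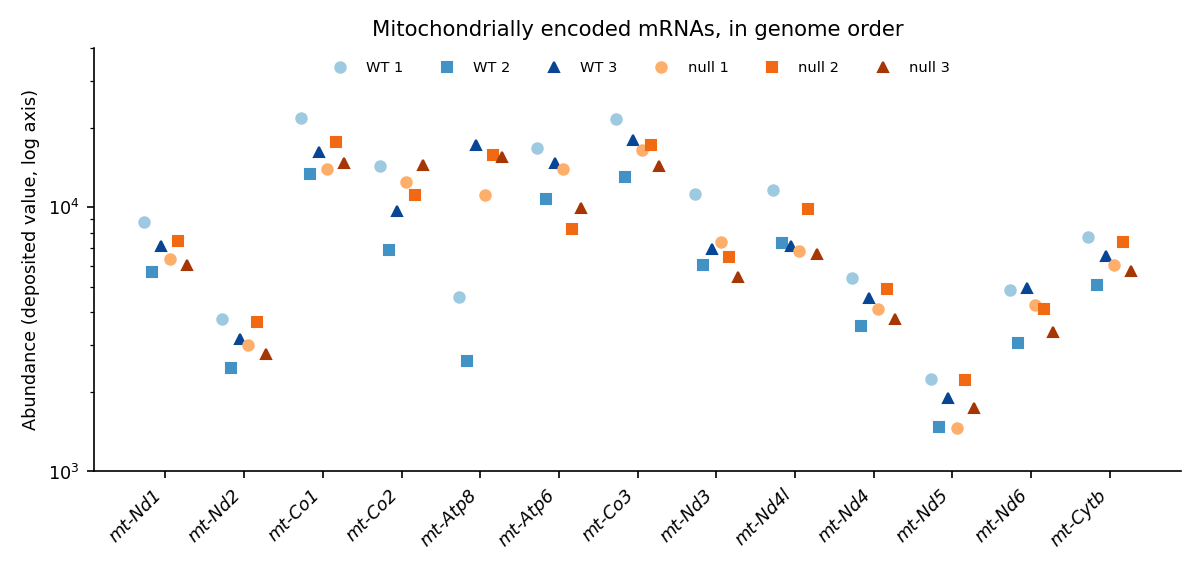
Abundance of the 13 mitochondrially encoded mRNAs on a log axis, in the order of the genes along the mitochondrial genome, with 1 point per library. WT 1 is highest for 10 genes and WT 2 lowest for 9, and mt-Atp8 shows the widest spread, from 2624 in WT 2 to 17156 in WT 3.

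The difference between genotypes was tested with limma on log2(abundance + 0.5) over the 9098 genes that reached an abundance of 5 in at least 3 libraries, and fold changes below are null against WT on that scale, ± the standard error. Of the 107 members, 101 passed this filter. No member was called at an adjusted p under 0.05, and the smallest adjusted p of any member was 0.812. Among all 9098 genes the same test called 1, or 0.011%. The members' 95% intervals give the precision of these results. For 97 of 101 members the interval lay inside a 2-fold change in either direction, a log2 fold change of -1 to 1. The exceptions were mt-Co2, mt-Atp6, mt-Atp8 and Cox7a1. For 62 members, all of them nuclear, the interval lay inside -0.5 to 0.5.

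Most mitochondrially encoded genes had a slightly lower mean in the null libraries. The log2 fold change was below 0 for 10 of 13, with a median of -0.10, where 46.7% of all genes tested were below 0 and their median was 0.02. None of the 13 separated the genotypes. In complex I, mt-Nd1 gave -0.10 ± 0.21, mt-Nd2 0.02 ± 0.21, mt-Nd4 -0.06 ± 0.21, mt-Nd5 -0.05 ± 0.22 and mt-Nd6 -0.11 ± 0.23. The short subunits mt-Nd3 and mt-Nd4l gave -0.28 ± 0.27 and -0.15 ± 0.26. For mt-Nd3 the abundance was 11178, 6020 and 6941 in WT against 7406, 6458 and 5445 in null libraries, so that WT 1 stood apart from the other 5. For mt-Nd4l it was 11650, 7340 and 7111 in WT against 6818, 9863 and 6677 in null libraries, with WT 1 and null 2 above the rest. The single mitochondrial subunit of complex III, mt-Cytb, was at 7732, 5072 and 6537 in WT against 6025, 7367 and 5725 in null libraries, a log2 fold change of 0.00 ± 0.21.

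Leaving out WT 1 turned the median of the 13 genes to 0.08, and leaving out WT 2 gave -0.25, so the sign of the median depended on which of these libraries was kept. Leaving out null 3 gave -0.02.

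The widest spread was in mt-Atp8, a small membrane subunit of ATP synthase whose mRNA, at 204 bases, is the shortest of the 13. Its abundance was 4564, 2624 and 17156 in WT against 11130, 15713 and 15481 in null libraries. WT 1 and WT 2 lay below all null libraries and WT 3 above them. The log2 fold change was 1.24 ± 0.64 (95% interval -0.26 to 2.74), with an unadjusted limma p of 0.092 and an adjusted p of 0.812. It was 0.66 without WT 2 and 2.01 without WT 3. Its overlapping neighbour mt-Atp6, the proton channel subunit, was at 16714, 10759 and 14677 in WT against 13903, 8280 and 9951 in null libraries, and null 2 and null 3 fell below every WT library. Its log2 fold change was -0.40 ± 0.26.

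The nuclear copies carried sizeable values of their own. Gm28661, the copy of mt-Co2, was listed at 14669, 11089 and 15071 in WT against 9356, 12463 and 4793 in null libraries. Gm29216, the copy of the end of mt-Co1, was listed at 15872, 9046 and 15731 in WT against 14196, 9044 and 7736 in null libraries. Gm10925, the copy of mt-Atp6, was listed at 4062, 2078 and 2281 in WT against 1564, 7536 and 3413 in null libraries. All 3 were thus at the level of the mitochondrial genes themselves, where the nuclear subunits described below averaged at most 662. By contrast Gm28437 did not pass 5.43, and Gm28439 and Gm10222 were listed at 0 in all 6 libraries although each is identical to its gene over its whole length. Gm28438, with a single different base, was at 11.3, 13.5 and 440 in WT against 789, 393 and 5.33 in null libraries.

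Adding each copy to its gene, weighted by length, changed the picture for mt-Co2, a subunit that receives electrons from cytochrome c. Its own value was 14292, 6884 and 9661 in WT against 12422, 11148 and 14411 in null libraries, with null mostly above WT and a log2 fold change of 0.36 ± 0.29. With its copy added it was 28898, 17924 and 24665 in WT against 21737, 23557 and 19183 in null libraries, and the log2 fold change was -0.13 ± 0.23. The coefficient of variation among WT libraries was 36.4% without the copy and 23.2% with it. For mt-Atp6 the sum was 20759, 12828 and 16947 in WT against 15460, 15783 and 13349 in null libraries. Its log2 fold change went from -0.40 to -0.16. The coefficient of variation of mt-Atp6 fell from 27.0% to 8.89% among null libraries but rose from 21.5% to 23.5% among WT libraries. For mt-Nd3 it rose from 15.2% to 20.1% among null libraries and fell from 34.2% to 32.6% among WT libraries. With the copies added, mt-Co1 gave -0.16 ± 0.23 and mt-Nd3 -0.23 ± 0.27, close to their own values. The copies were counted in this way after the data had been seen, and no member was called with or without them.

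**Figure D2:**
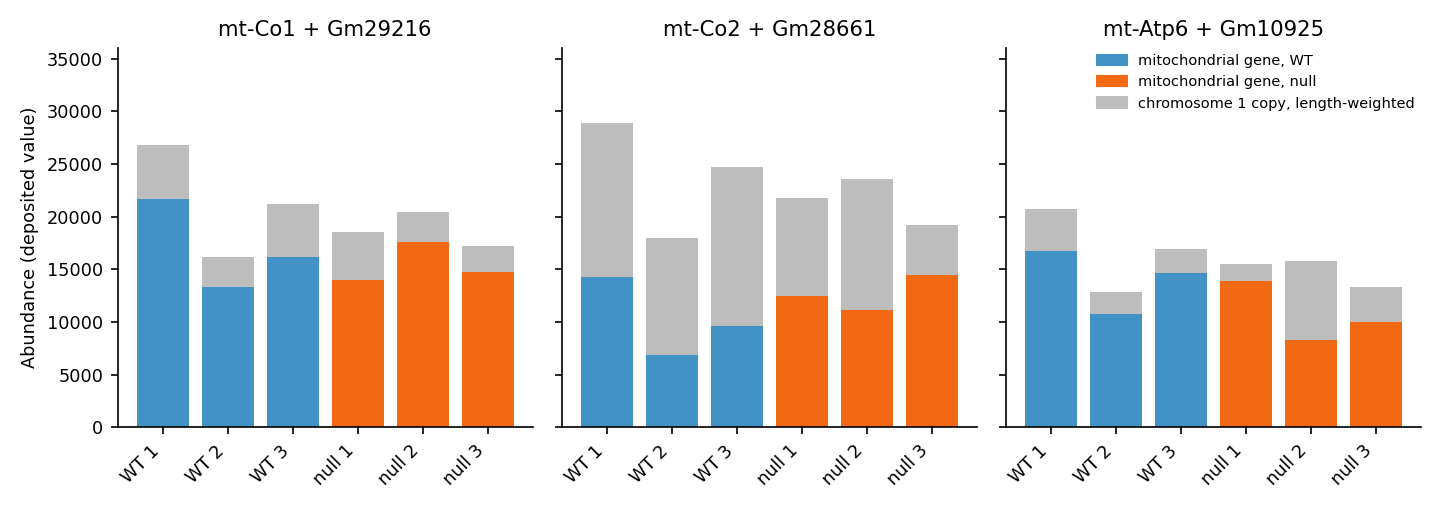
Stacked abundance of mt-Co1, mt-Co2 and mt-Atp6 (coloured) and of the matching chromosome 1 copy weighted by its length (grey) in each library. The mt-Co2 copy is above the gene itself in the 3 WT libraries and in null 2 and is lowest in null 3, at 4793. By coefficient of variation, the mt-Co2 sums vary less among libraries of a genotype than the gene alone.

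The 86 nuclear subunits were far less abundant than the mitochondrial mRNAs. Their summed abundance was 14189, 12051 and 13862 in WT against 13288, 12785 and 12965 in null libraries, and their means per gene ran from 0 to 662 with a median of 113. Their share of the total was 1.25%, 1.29% and 1.30% in WT against 1.45%, 1.31% and 1.32% in null libraries. On this share every null library was above every WT library, but the margin between WT 3 and null 2 was small and the globin share of the same libraries was lower in null. The summed abundance itself overlapped between the genotypes.

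Of the 81 nuclear subunits tested, 34 had a higher and 47 a lower mean in null libraries, with a median log2 fold change of -0.03, which was 0.015 without WT 1, 0.0100 without WT 3 and -0.013 without null 3. Over all 101 tested members 60 were below 0, and 94 lay between -0.3 and 0.3. At an unadjusted p under 0.05 there were 0 members higher and 1 lower, where the background over all genes was 2.88% higher and 2.08% lower. No overlap between genotypes was seen in 0 members higher and 3 lower, against 5.36% and 5.09% of all genes. The members' shares were thus near or under the background in each direction.

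**Figure D3:**
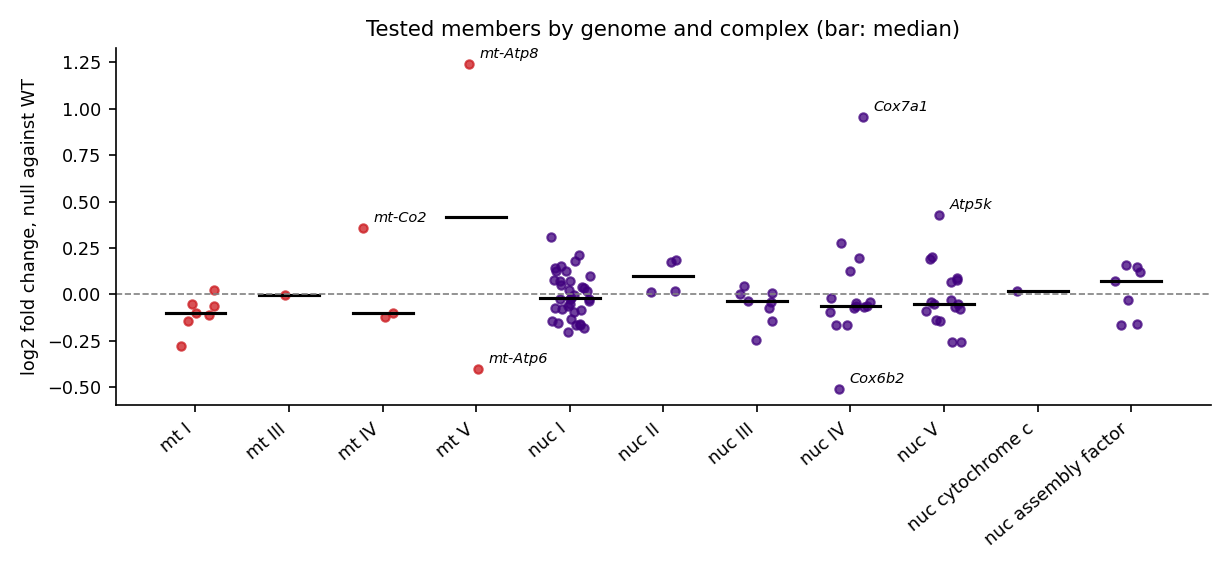
Log2 fold change, null against WT, of the 101 tested members by genome and complex, with 1 point per gene and a bar at the median of each set. Most points lie between -0.3 and 0.3, and the labelled genes are those beyond 0.35 in either direction, of which mt-Atp8 at 1.24 is the farthest.

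Complex I, which oxidises NADH, has the most nuclear members. All 36 were tested, 16 with a higher and 20 with a lower mean in null, and the median was -0.02. The most abundant were Ndufa3 and Ndufa1, small accessory subunits of the membrane arm. Abundance of Ndufa3 was 236, 197 and 305 in WT against 274, 225 and 264 in null libraries, with the null values inside the WT range (log2 fold change 0.07 ± 0.18). Ndufa1 was at 205, 184 and 184 in WT against 189, 178 and 226 in null libraries, again overlapping (0.04 ± 0.13). The smallest p-values in this complex belonged to Ndufc1, an accessory subunit, and to Ndufs7, which carries the last iron-sulphur cluster before ubiquinone. Ndufc1 was at 75.1, 66.9 and 98.7 in WT against 112, 90.1 and 93.4 in null libraries, with WT 3 above 2 of the null libraries (0.31 ± 0.17). Ndufs7 was at 77.7, 70.6 and 78.8 in WT against 75.6, 66.5 and 59.0 in null libraries (-0.18 ± 0.13). Both fell short of the threshold.

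The 4 subunits of complex II, succinate dehydrogenase, which also works in the citric acid cycle, all had a higher mean in null libraries, with a median of 0.10. Sdha, the flavoprotein, was at 63.9, 61.7 and 69.4 in WT against 67.9, 76.1 and 77.6 in null libraries, with null 1 below WT 3 (0.18 ± 0.11). Sdhb, the iron-sulphur subunit, was at 63.5, 64.9 and 66.0 in WT against 63.0, 75.9 and 81.9 in null libraries (0.17 ± 0.13). The membrane anchor Sdhd was at 93.6, 80.4 and 94.7 in WT against 90.9, 88.0 and 91.2 in null libraries (0.01 ± 0.11). In all 3 the genotypes overlapped.

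Complex III passes electrons from ubiquinol to cytochrome c. Of its 8 nuclear members, 3 had a higher and 5 a lower mean in null, with a median of -0.04. Uqcrh, the hinge protein that binds cytochrome c1, was at 426, 355 and 420 in WT against 372, 314 and 326 in null libraries, and only null 1 exceeded WT 2 (-0.25 ± 0.13). Uqcr10 was at 284, 229 and 255 in WT against 252, 240 and 235 in null libraries (-0.08 ± 0.12). Uqcrfs1, the Rieske iron-sulphur protein, was at 86.6, 73.5 and 72.0 in WT against 71.5, 70.4 and 67.5 in null libraries. It was 1 of the 3 members whose genotypes did not overlap, but WT 3 and null 1 were nearly equal (-0.14 ± 0.12). Cytochrome c itself, Cycs, was at 19.4, 17.3 and 19.5 in WT against 20.05, 17.5 and 19.5 in null libraries (0.02 ± 0.11).

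Complex IV, cytochrome oxidase, has 19 nuclear members, of which 15 passed the filter, 4 with a higher and 11 with a lower mean in null and a median of -0.06. Cox4i1, a regulatory subunit, was at 567, 467 and 505 in WT against 487, 456 and 496 in null libraries (-0.09 ± 0.13). Cox6c was at 496, 427 and 551 in WT against 480, 464 and 457 in null libraries (-0.06 ± 0.13). Cox8a, a small membrane subunit, was at 493, 433 and 402 in WT against 400, 382 and 400 in null libraries, without overlap but with WT 3 within 2 units of the highest null library (-0.16 ± 0.13). The 1 member at an unadjusted p under 0.05 was Cox6b2, an isoform known from testis in place of the widely used Cox6b1. Its abundance was 59.9, 61.8 and 72.6 in WT against 60.1, 43.2 and 35.4 in null libraries, so that null 1 lay among the WT libraries and the other 2 below them. The log2 fold change was -0.51 ± 0.20 (95% interval -0.99 to -0.03), with an unadjusted limma p of 0.039 and an adjusted p of 0.812. Without null 3 it was -0.34, and no member was then below an unadjusted p of 0.05.

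Several complex IV subunits have isoforms restricted to some tissues. Apart from Cox6b2, with a mean of 55.5, these were low in the libraries. Because the libraries held much marrow and blood RNA, the cell type behind each level is unknown. Cox4i2, known from lung, was between 2.23 and 3.15 in WT and between 2.57 and 2.93 in null libraries, where Cox4i1 averaged 496. The testis isoforms Cox7b2 and Cox8c were at most 0.28 and at 0 in all 6 libraries. Ndufa4l2, a paralogue of the subunit Ndufa4 known to respond to hypoxia in other cells, was at 5.62, 7.31 and 6.83 in WT against 9.18, 7.07 and 4.11 in null libraries, with the WT values inside the null range (-0.02 ± 0.28). Cox7a1, the isoform of heart and skeletal muscle, was at 1.55, 3.00 and 6.14 in WT against 11.9, 4.45 and 5.11 in null libraries. Null 1 was the highest and WT 1 the lowest, and the log2 fold change was 0.95 ± 0.51 (95% interval -0.24 to 2.15), or 0.54 without WT 1. Cox8b, also a muscle isoform, was at 2.27, 1.69 and 0.77 in WT against 5.10, 1.16 and 1.96 in null libraries, again with null 1 the highest.

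Muscle markers were also highest in null 1. Myl1, a myosin light chain of fast muscle, was at 2.46, 4.53 and 3.64 in WT against 22.0, 7.40 and 7.19 in null libraries, and Acta1, skeletal muscle actin, at 2.21, 5.08 and 2.94 in WT against 21.1, 5.31 and 8.55 in null libraries. Of 12 muscle markers, 4 passed the filter and all were higher in null. Myl1 passed it through its null values alone, and Acta1 reached 5 in WT 2 only among the WT libraries. The direction of the markers tested was thus partly set by the filter. The summed level of the 12 markers was between 40.4 and 55.6 in WT and between 60.6 and 185 in null libraries. Their part in the values of Cox7a1 and Cox8b was not tested.

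**Figure D4:**
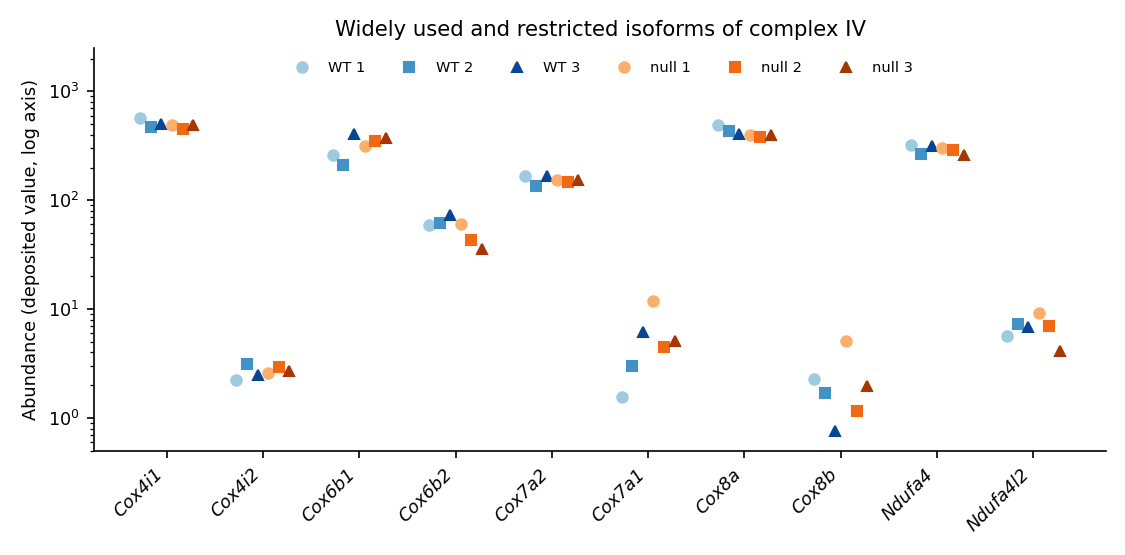
Abundance on a log axis of widely used subunits of complex IV and their restricted isoforms, with 1 point per library; the pairs are Cox4i1 and Cox4i2, Cox6b1 and Cox6b2, Cox7a2 and Cox7a1, Cox8a and Cox8b, and Ndufa4 and Ndufa4l2. Each restricted isoform lies below its partner in all 6 libraries, and null 1 is highest for Cox7a1 at 11.9 and Cox8b at 5.10.

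Complex V has 18 nuclear identifiers, of which 17 were tested, 6 with a higher and 11 with a lower mean in null and a median of -0.05. Atp5b, the catalytic beta subunit and the most abundant nuclear member, was at 805, 808 and 562 in WT against 632, 616 and 548 in null libraries, with WT 3 among the null values (-0.26 ± 0.18). Atp5e is a small subunit of the central stalk. Its abundance was 637, 472 and 523 in WT against 535, 572 and 593 in null libraries (0.07 ± 0.15). Atp5k, a small membrane subunit involved in dimers of the enzyme, was at 272, 190 and 341 in WT against 327, 367 and 359 in null libraries, with WT 3 between null 1 and null 3. Its log2 fold change was 0.43 ± 0.22 (95% interval -0.08 to 0.94) with an unadjusted limma p of 0.088, and it was 0.20 without WT 2. Atp5mpl, a further small membrane-associated protein of the enzyme, was at 498, 379 and 347 in WT against 340, 336 and 334 in null libraries. The null values were within 6 units of each other and all below WT, whereas WT 3 was close to them (-0.26 ± 0.16, or -0.11 without WT 1).

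Of the 8 Ndufaf assembly factors, 7 were tested, 4 with a higher and 3 with a lower mean, and the median was 0.07. They were less abundant than the subunits they help to assemble, with means from 4.75 to 24.8. Ndufaf8 was at 25.9, 22.2 and 30.6 in WT against 25.6, 22.4 and 21.9 in null libraries (-0.16 ± 0.15). Ndufaf2 was at 18.9, 15.7 and 18.1 in WT against 19.99, 15.5 and 16.1 in null libraries (-0.03 ± 0.14). Ndufaf1 was at 11.2, 9.28 and 10.2 in WT against 9.41, 9.77 and 8.10 in null libraries (-0.16 ± 0.13). Genotypes overlapped for all 3. Ndufaf5, at 4.12 to 5.30 over the 6 libraries, did not pass the filter.

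The balance between the genomes was then compared within each library, as the log2 ratio of summed mitochondrial to summed nuclear subunits of the same complex. This ratio does not depend on scaling between libraries. Mitochondrial subunits exceeded nuclear ones in every complex and every library, but by unequal amounts. In complex IV the log2 ratio was 3.88, 3.32 and 3.46 in WT against 3.53, 3.68 and 3.60 in null libraries, and in complex III it was 2.26, 1.93 and 2.06 in WT against 2.04, 2.41 and 2.04 in null libraries. Complex I gave 3.71, 3.23 and 3.22 in WT against 3.18, 3.51 and 3.07 in null libraries. Complex V gave 2.18, 1.76 and 2.93 in WT against 2.61, 2.54 and 2.63 in null libraries. Null minus WT, the difference of the means was -0.13 for complex I, 0.08 for complex III, 0.05 for complex IV and 0.30 for complex V, and the genotypes overlapped in each. These differences rested on single libraries. Leaving out WT 1 turned complex I to 0.032, leaving out null 2 turned complex III to -0.045 and leaving out WT 2 turned complex IV to -0.063, while complex V was 0.034 without WT 2 and 0.62 without WT 3. Among the WT libraries the complex V ratio had the order of mt-Atp8, whereas among the null libraries it did not, null 2 having the highest mt-Atp8 and the lowest ratio. With the chromosome 1 copies added, the difference in complex IV turned to -0.09 and that in complex V was 0.34.

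**Figure D5:**
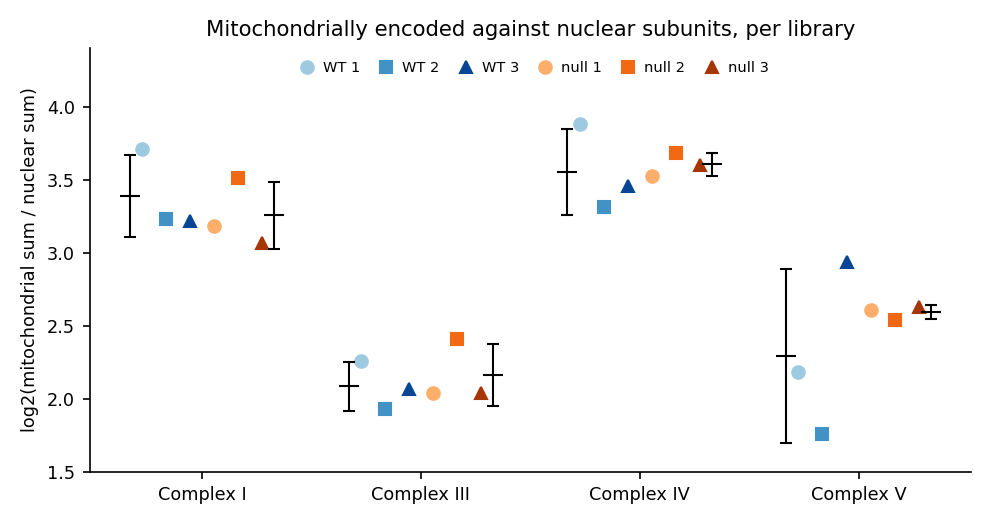
Log2 ratio of summed mitochondrially encoded to summed nuclear subunits in each library for complexes I, III, IV and V, with the mean ± SD of the WT libraries at the left and of the null libraries at the right of each set. The genotypes overlap in all 4 complexes, and the widest spread is that of complex V in WT, from 1.76 to 2.93.

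Several nuclear members also share sequence with genes or pseudogenes elsewhere, so that reads could be assigned to either. The share is given as the part of the gene's 31-base words that occur in the other gene, 31 being the default word length of kallisto. Atp5g2, which encodes the ring subunit of ATP synthase, was at 17.1, 17.9 and 13.4 in WT against 24.4, 17 and 15.2 in null libraries, while the transcribed pseudogene Gm10175, with 37.5% of its words, was at 253, 241 and 280 in WT against 256, 264 and 249 in null libraries. Cycs, at 17.3 to 20.05, shared 26.2% of its words with Gm10053, which is annotated as protein-coding. Gm10053 was at 61.7, 56.6 and 62.2 in WT against 63.3, 82.4 and 74.4 in null libraries. Ndufb4, at 20.2 to 30.4, shared 19.1% with the pseudogene Ndufb4c, at 172, 144 and 123 in WT against 118, 126 and 137 in null libraries. In all 3 the gene or pseudogene that shares the words was listed above the member, and the levels of these members are therefore uncertain. Other members shared words with genes listed below them, such as Ndufb6, with 34.4% in Smim27, which was at 3.69 to 5.74. Ndufaf2, described above, had 65.1% of its words in other genes. Over the 94 nuclear members the median share of words found in any other gene was 4.1%.

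Nuclear subunits are short transcripts, and length went with the fold change across the whole table. The 81 tested nuclear subunits had a median transcript length of 861 bases against 2730 for all genes tested, and 72 of them were at most 2000 bases long. Among all genes of up to 600 bases the median log2 fold change was -0.07 with 61.8% below 0, among those of 600 to 1200 bases it was -0.04 with 58.7% below 0, and among those over 4000 bases it was 0.07 with 35.9% below 0. The nuclear subunits in the first 2 classes had medians of -0.04 and -0.03, with 55% and 60% below 0. In the class of 1200 to 2000 bases, the 17 subunits had a median of -0.04 with 64.7% below 0, against -0.02 and 53.5% for all genes. By library, all genes over 4000 bases had median deviations of -0.0499, -0.0212 and -0.0364 in WT against -0.0387, 0.0529 and 0.0996 in null libraries. Null 1 thus lay inside the WT range, and only null 2 and null 3 were raised. For all genes of up to 600 bases they were 0.105, -0.0734 and 0.0568 in WT against -0.00071, -0.0590 and -0.0575 in null libraries. There WT 2 was the lowest. The classes of all genes include the members, and whether length accounts for the values of the subunits was not tested.

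No gene of the other mitochondrial groups was called at an adjusted p under 0.05, but the unadjusted counts of some stood above the background. Of the 78 mitochondrial ribosomal proteins, which translate the 13 mitochondrial mRNAs, 77 were tested, 26 with a higher and 51 with a lower mean in null and a median of -0.07. At an unadjusted p under 0.05 there were 0 higher and 5 lower, the latter 6.49% against 2.08% of all genes. No overlap was seen in 10 lower, or 13% against 5.09%, and in 1 higher, or 1.30% against 5.36%. The count of 5 was 0 without WT 1, where 1.00% of all genes were lower. It was 4 without WT 2 (5.19% against 1.15% of all genes) and 2 without WT 3 (2.60% against 1.14%). It was 8 without null 1 (10.4% against 8.46%), 2 without null 2 (2.60% against 1.39%) and 1 without null 3 (1.30% against 2.01%). The median was -0.0015 without null 3. The background was not matched for transcript length, and whether length accounts for these counts was not tested. Mrpl52 was at 192, 180 and 169 in WT against 150, 139 and 113 in null libraries (-0.43 ± 0.14). Mrps9 was at 28.5, 27.9 and 30.9 in WT against 25.2, 24.1 and 21.3 in null libraries (-0.30 ± 0.11). Of 34 assembly factors of complexes II to V, 25 were tested, 13 higher and 12 lower, and 3 were higher at an unadjusted p under 0.05 and without overlap, each count 12.0% against a background of 2.88% and 5.36%. At that p the count was 0 without WT 2 and 1 without WT 1, null 2 or null 3. Coa3, an assembly factor of complex IV that acts with newly made mt-Co1, was at 46.7, 37.5 and 41.7 in WT against 50.8, 56.1 and 61.9 in null libraries (0.42 ± 0.13). Bcs1l inserts the Rieske protein into complex III. It was at 5.63, 5.26 and 5.97 in WT against 6.46, 8.32 and 8.12 in null libraries (0.40 ± 0.15). All of these had an adjusted p of 0.812.

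Among 36 genes of mitochondrial DNA maintenance, transcription, RNA processing and translation, 28 were tested, 10 higher and 18 lower with a median of -0.09. Tfam packages mitochondrial DNA and acts in its transcription. It was at 25.7, 33.5 and 23.4 in WT against 23.4, 19.8 and 20.6 in null libraries (-0.35 ± 0.16). WT 2 had the lowest summed mitochondrial mRNAs and the highest Tfam, but WT 1 had the highest sum and the next highest Tfam. A relation between these levels was not tested. Mtif3, an initiation factor of mitochondrial translation, was at 8.60, 7.17 and 7.61 in WT against 8.80, 14.2 and 9.51 in null libraries, without overlap but with null 1 near WT 1 (0.42 ± 0.19). Of 14 regulators of mitochondrial genes 10 were tested, 7 higher and 3 lower. Pprc1, a coactivator of the PGC-1 family, was at 14.1, 9.79 and 10.8 in WT against 11.4, 8.93 and 5.55 in null libraries (-0.44 ± 0.27). Sirt3, a mitochondrial deacetylase, was at 12.8, 13.01 and 11.3 in WT against 9.14, 11.1 and 9.75 in null libraries (-0.29 ± 0.13). All 17 citric acid cycle genes were tested, 9 higher and 8 lower with a median of 0.01. Suclg2, a subunit of succinyl-CoA synthetase, was at 10.7, 11.2 and 11.1 in WT against 9.65, 10.3 and 9.69 in null libraries (-0.15 ± 0.11), and Fh1, fumarase, gave 0.13 ± 0.12. Of 19 genes for other electron carriers and uncoupling, 17 were tested, 13 higher and 4 lower with a median of 0.09. Higd1a, which binds complex IV, was at 27.9, 24.3 and 35.4 in WT against 42.1, 35.3 and 33.1 in null libraries (0.34 ± 0.17), and Gpd2, which feeds electrons from glycerol 3-phosphate into the chain, gave 0.30 ± 0.21. None of these genes was called at an adjusted p under 0.05.

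The promoters of the nuclear members were searched for 3 motifs known from genes of this class. RefSeq gave a promoter, from 250 bases before to 50 after the gene start (build GRCm38.p6), for 70 of the 85 nuclear subunits looked up. The core of the NRF1 site, GCGCATGCG or its reverse complement CGCATGCGC, was present in 9 of 70 promoters (12.9%), against 2.41% of 17492 promoters of protein-coding genes. The YY1 motif AAGATGGC or GCCATCTT was also in 9 (12.9%, against 3.22%), and the ETS motif CCGGAAGT or ACTTCCGG in 5 (7.1%, against 5.29%). Most YY1 matches lay 22 to 38 bases after the gene start. Stretches are shown for members described above and for Uqcrc1, a core subunit of complex III, with the match in capitals and 25 bases on each side where the window allows. They are from Cycs (chr6:50566597-50566655, - strand), Atp5k (chr5:108434416-108434474, - strand) and Uqcrc1 (chr9:108936653-108936697, + strand) for NRF1, from Ndufa3 (chr7:3617370-3617422, + strand), Ndufc1 (chr3:51408906-51408958, - strand) and Ndufs7 (chr10:80249448-80249498, + strand) for YY1, and from Uqcrh (chr4:116075049-116075106, - strand) and Cox8a (chr19:7217590-7217647, - strand) for ETS. A match describes the letters and does not show that the factor binds.
Cycs, NRF1: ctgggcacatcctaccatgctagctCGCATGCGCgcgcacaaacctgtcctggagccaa
Atp5k, NRF1: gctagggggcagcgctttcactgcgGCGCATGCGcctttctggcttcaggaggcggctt
Uqcrc1, NRF1: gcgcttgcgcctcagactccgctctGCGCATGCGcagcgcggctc
Ndufa3, YY1: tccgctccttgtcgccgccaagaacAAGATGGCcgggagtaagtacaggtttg
Ndufc1, YY1: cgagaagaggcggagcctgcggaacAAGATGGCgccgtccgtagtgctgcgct
Ndufs7, YY1: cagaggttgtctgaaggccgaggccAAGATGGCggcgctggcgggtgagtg
Uqcrh, ETS: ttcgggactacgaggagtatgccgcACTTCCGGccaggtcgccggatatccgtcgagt
Cox8a, ETS: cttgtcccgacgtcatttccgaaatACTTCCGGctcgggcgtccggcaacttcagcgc

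Members with the same motif had log2 fold changes of both signs. They ran from -0.20 to 0.43 over the 9 NRF1 members, 5 above and 4 below 0, from -0.18 to 0.31 over the 9 YY1 members, 4 above and 5 below 0, and from -0.25 to 0.05 over the 5 ETS members, 1 above and 4 below 0. Of those shown, Uqcrc1 gave -0.04 ± 0.11 and Ndufa3 0.07 ± 0.18. None of them passed the adjusted threshold.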

How the data were processed

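Knee cartilage RNA was sequenced from 3 WT and 3 miR-455 null libraries. Per the labels, the submitters' processing used FastQC, Trim Galore, kallisto and sleuth with build mm10, and their versions are not given in the sources used here. Each deposited value is a signal for 1 gene, never below 0, which the authors name a normalised count. They are not whole, behave as normalised for length and summed to between 917819 and 1135956 per library, so no count model was used. Read depth is unknown. Whether libraries of a genotype came from separate animals is not stated, and p-values then measure the spread between these libraries, which may be technical. The way transcripts were summed to genes, the strand setting and the treatment of reads that fit several genes are not given in the sources used here, and the sharing of reads between overlapping or near-identical genes affects the mitochondrial values most.

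Names came from GENCODE release M21, which matched 35945 of 36711 identifiers, and 13535 identifiers were at 0 in all 6 libraries. Genes at 5 or more in at least 3 libraries (9098) were tested with limma 3.58.1 (R 4.3.3) on log2(value + 0.5), using a prior variance with a trend, genotype alone as the term and Benjamini-Hochberg adjustment. The fold change on this scale understates the change of genes of low abundance. Columns of test results were not used. Sets of members were described by counts and medians beside those of all genes tested, and ratios and shares by mean and SD. The procedure was run on simulated data whose changes were larger than those of most members. That run therefore cannot show how well small changes are detected. Members and lists were chosen with earlier results of these data known. Named genes were all 13 mitochondrial genes, the 2 most abundant and the 2 of smallest p in each nuclear set, the restricted isoforms, and up to 2 of smallest p in each related list. Cox8a, Uqcrc1, the genes that share sequence and the partners of isoforms were named after their values were seen. A gene called over the whole table is no member and is not reported here.

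Sequences came from GENCODE transcripts and RefSeq promoters. Copies were counted with a mitochondrial gene when they shared at least 25% of its 31-base words and held at least 90% of their own in it. Same-numbered WT and null libraries did not deviate together, with correlations of -0.14, -0.01 and -0.04, and the numbers were not taken as pairs. Alternatives were other pseudocounts, filters, scalings and variance models, the replicate number as a block, leaving out each library and adding the copies. Python 3.11.15, pandas 2.3.3 and matplotlib 3.10.9 were used.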

Additional observations from a re-analysis of the deposited data

How the results depend on the processing

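With 3 libraries of each genotype and an unknown depth, small changes in single subunits were below what the test could detect. No respiratory chain gene was called at an adjusted p under 0.05 under any alternative tried, and the lowest adjusted p of any member was 0.1416. The whole table had 1 call, which became 2 without a filter and 4 with a minimum of 1, and between 0 and 9 when 1 library was left out (9 without WT 3, 4 without null 1 and 0 without null 2 or null 3). Members higher at an unadjusted p under 0.05 numbered 0, and between 0 and 5 with 1 library left out (5 without WT 3, 1 without WT 1 or null 1). Of all genes, 2.28% were higher at that p without WT 3, 1.51% without WT 1 and 13.2% without null 1. Members lower numbered 1, and 0 when libraries were scaled by the total without globin, calprotectin and mitochondrial genes, 0 with the replicate block, and between 0 and 2 with 1 library left out (2 without null 1, 0 without WT 1, WT 2, null 2 or null 3). Of all genes, 8.46% were lower without null 1. The share was 1.00% without WT 1, 1.15% without WT 2, 1.39% without null 2 and 2.01% without null 3. The replicate block changed no adjusted call of a member.

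The medians of nuclear subunits changed sign with 1 library left out in every set but complex II. They ran from -0.088 to 0.015 over all subunits, -0.091 to 0.053 for complex I, -0.11 to 0.017 for complex III, -0.15 to 0.0061 for complex IV and -0.096 to 0.030 for complex V, the highest values being those without WT 1 or WT 3, and stayed between 0.048 and 0.15 for complex II. The difference in the mitochondrial share of the total ran from -0.052 to 1.53 percentage points. For complex V, no ratio could be calculated without the overlapping mitochondrial genes, because no mitochondrial gene of that complex is then left.

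Of 568 values for the 36 named and tested genes under the alternatives, 537 kept their direction, and 31 in 18 genes changed sign. None of these genes was called, and the cause of the sign changes was not tested. Among them, mt-Co2 went from 0.36 to -0.13 when its copy was added, a sum made after the data had been seen. Sdhd gave -0.0052 with median-ratio scaling, and mt-Cytb 0.0025 with scaling by the total. With 1 library left out, the log2 fold changes ran from -0.028 to 0.19 for Atp5e, -0.16 to 0.021 for Cox6c, -0.034 to 0.078 for Cycs, -0.058 to 0.11 for Ndufa1, -0.079 to 0.24 for Ndufa3, -0.26 to 0.28 for Ndufa4l2, -0.14 to 0.035 for Ndufaf2 and -0.064 to 0.053 for Sdhd. For the mitochondrial genes they ran from -0.29 to 0.066 for mt-Co1, -0.30 to 0.069 for mt-Co3, -0.17 to 0.14 for mt-Cytb, -0.26 to 0.053 for mt-Nd1, -0.14 to 0.17 for mt-Nd2, -0.22 to 0.079 for mt-Nd4, -0.33 to 0.084 for mt-Nd4l, -0.21 to 0.091 for mt-Nd5 and -0.34 to 0.0079 for mt-Nd6.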
